A study of Mus musculus with 10 samples.

Results

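Pericytes and smooth muscle cells wrap the outside of blood vessels, and 9 genes that mark these mural cells were followed here in Hepa1-6 tumours. They were Acta2, Tagln, Myh11, Cnn1, Rgs5, Mylk, Cspg4, Notch3 and Lmod1. They were chosen by symbol, each had 1 line in the deposited table, and they make up 9 of its 55020 lines. Hepa1-6 is a mouse hepatoma cell line, and all 10 tumours were grown for 4 weeks under the skin of C57/BL6 mice. Poly-A RNA was sequenced from 5 tumours of mice given vehicle and 5 tumours of mice that received GSK343, which blocks EZH2, the enzyme that methylates histone H3 in Polycomb silencing. Titles beginning with G name GSK343, and those beginning with C were taken as vehicle by elimination. Antibody injections (Control or Anti-AsilaoGM1, as the labels spell it, directed at a glycolipid of natural killer cells) are named in the protocols without being tied to single tumours. Each tumour is a mixture of the injected cells with host vessels, stroma and immune cells, so fewer cells of a type and less RNA per cell cannot be told apart.

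Contractile cells draw on a shared machinery. Smooth muscle actin (Acta2) forms the thin filaments, smooth muscle myosin (Myh11) pulls on them, and the myosin light chain kinase Mylk switches the myosin on in response to calcium. Transgelin (Tagln), calponin (Cnn1) and leiomodin (Lmod1) bind or assemble actin filaments, and Cnn1, Lmod1 and Myh11 are typical of mature contractile smooth muscle. Acta2 and Tagln are also made by activated fibroblasts, including those of tumours. Pericytes of small vessels are known for Rgs5, a regulator of G protein signalling, and for Cspg4, the NG2 proteoglycan. Notch3 is the Notch receptor of mural cells and receives signals from ligands on neighbouring endothelium. Many contractile genes are switched on by serum response factor with its coactivators of the myocardin family, which bind a short element called the CArG box.

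Acta2 belongs to a family of very similar actins, of which Acta1, the skeletal muscle actin, varied widely between these tumours. The first 60 bases of the coding sequences are shown because reads can be given to the right actin only where the genes differ. They come from the GENCODE M21 transcripts, and capitals mark bases that differ from Acta2.
Acta2: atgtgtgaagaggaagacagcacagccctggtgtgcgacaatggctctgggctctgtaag
Acta1: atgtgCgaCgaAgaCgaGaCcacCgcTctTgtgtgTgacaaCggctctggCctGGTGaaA
Actc1: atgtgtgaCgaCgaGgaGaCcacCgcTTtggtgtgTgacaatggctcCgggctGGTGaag
Acta1 differed from Acta2 at 17 of these 60 bases, and Actc1, the cardiac actin, at 14. Over the whole coding sequence the identity with Acta2 was 85.4% for Acta1, 82.6% for Actc1 and 84.2% for Actg2, the enteric smooth muscle actin. The longest run shared with Acta2 was 29 bases for Acta1 and Actg2 and 23 bases for Actc1. No stretch of 50 bases of the Acta2 coding sequence recurred in any of the 3 genes. Of all stretches of 50 bases in the longest Acta2 transcript, 0.352% occurred in a transcript of another gene, on either strand.

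The RefSeq promoter table (GRCm38.p6) held 7 of the 9 members, and Tagln and Myh11 were not among them. In the 250 bases before the start site, the CArG box was searched as 10 bases, CC, then 6 bases of A or T, then GG, which reads as the same motif on both strands. For each member 1 RefSeq start was searched, so other starts of a gene were not covered. For Mylk the searched bases (chromosome 16, 34784700 to 34784949) lie inside the deposited gene, which begins at 34745210. No member held an exact match, against 1.47% of all 32851 promoters. With at most 1 G or C allowed in the middle 6 bases, 1 of the 7 promoters held matches, Acta2 with 2, against 8.59% of all promoters. Both are shown with 10 bases on either side, on the minus strand, with the match in capitals.
Acta2 site at chr19:34255438-34255467: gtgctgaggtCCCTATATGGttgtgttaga
Acta2 site at chr19:34255388-34255417: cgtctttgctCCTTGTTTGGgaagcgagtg
The first begins 84 bases and the second 34 bases before the RefSeq start. Both stretches shown overlap exon bases of Acta2 in GENCODE M21, which has a form that starts upstream of the RefSeq start. A match describes the letters and says nothing of binding.

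The table's numbers were taken to be FPKM, that is, fragments per transcript length and library size, so levels of different genes can be compared per length. The values summed to between 574547 and 623397 FPKM per tumour, and 13985 to 14714 lines reached 1 FPKM. Values of single-exon genes fell on steps, and a step of 1 read would mean 38.0 to 50.8 M reads per library (M, mega), which is an inference. GSK343 replicates 3 and 5 had mitochondrial shares of 7.17% and 7.11%, against 2.63% to 5.05% in the other tumours. Nothing in the labels marks a batch. The label of pericyte and smooth muscle genes held in part. Rgs5, Cspg4 and Pdgfrb, the receptor for platelet-derived growth factor B (18.9 FPKM over the 10 tumours), were present in every tumour. Fibroblasts make Pdgfrb too, and not every gene of the wider pericyte list given below was present in every tumour. The mature smooth muscle markers Cnn1 and Lmod1 stayed under 1 FPKM in every tumour. Myh11, also typical of mature smooth muscle, ranged from 0.524 to 1.63 FPKM with vehicle and from 1.55 to 3.20 FPKM with GSK343. Myocd, which encodes myocardin, had a mean of 0.0105 FPKM and was listed at 0 in 5 of the 10.

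Levels per length spanned a wide range. Acta2 (58.3 FPKM over the 10 tumours) and Rgs5 (58.1 FPKM) were highest. Acta2 was above Rgs5 in 4 of 10 tumours, so their order was not settled. Tagln followed at 30.4 FPKM and lay below Rgs5 in all 10 tumours. Mylk (7.88 FPKM), Notch3 (6.97 FPKM) and Cspg4 (6.03 FPKM) lay close together, with Mylk above Notch3 in 9 of 10 tumours and Notch3 above Cspg4 in 7 of 10. Myh11 was lower at 1.69 FPKM, Lmod1 at 0.513 FPKM and Cnn1 lowest at 0.135 FPKM. The median ratio of Tagln to Acta2 within a tumour was 51.8% in vehicle and 50.2% in GSK343 tumours, with ranges of 48.0% to 60.6% and 49.6% to 53.0%. The median ratio of Myh11 to Acta2 was 1.91% in vehicle (1.46% to 3.27%) and 3.41% in GSK343 tumours (2.07% to 4.76%).

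**Figure D1:**
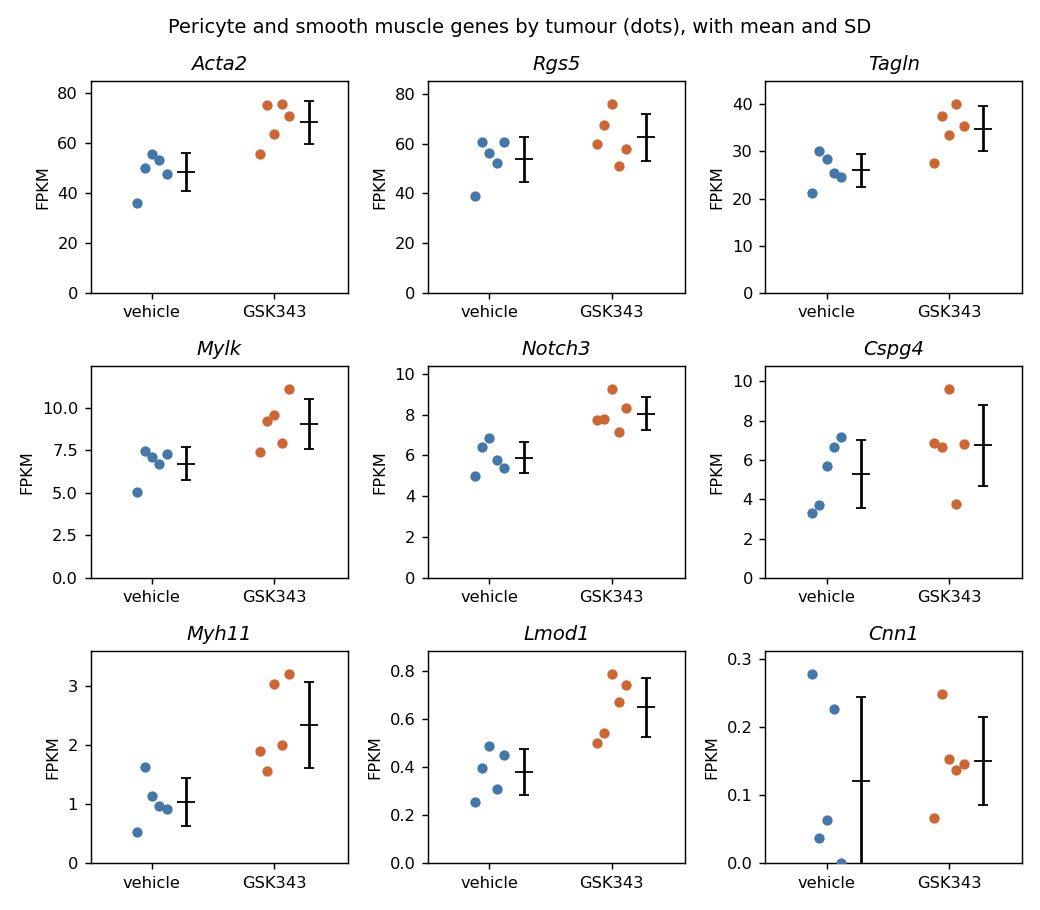
FPKM of each of the 9 genes (vertical axes, each from 0) in 5 vehicle and 5 GSK343 tumours; dots are tumours, and the line with bars is the mean with SD. Acta2, Notch3 and Lmod1 show no overlap between the groups, and Cnn1 stays under 0.3 FPKM. Of the 14496 lines tested, 1.42% had GSK343 higher without overlap, and Lmod1 was not among the lines tested.

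GSK343 tumours had a higher mean of all 9 genes, but no member passed the test. The test was limma on log2(FPKM + 1), a scale that understates the change of low genes, over the 14496 lines that averaged 1 FPKM or more. A call is a Benjamini-Hochberg adjusted p under 0.05, and 0.0828% of all lines reached it. Of the 7 members tested, 0 were called and all 7 had a log2 fold change above 0, as did 47.6% of lines. An unadjusted limma p under 0.05 with a higher GSK343 level was reached by 5 of the 7, against 10.7% of lines. The groups did not overlap for 2 of the 7, Acta2 and Notch3, with GSK343 higher, against 1.42% of lines. The median log2 fold change of the 7 was 0.40, and the median of all lines was -0.01, with the middle 50% of lines between -0.12 and 0.14. With GSK343 replicates 3 and 5 left out, whose mitochondrial shares were highest, 0 of 7 were called, 4 of 7 were higher at an unadjusted p under 0.05, against 4.81% of lines in that fit, and the median was 0.32. A further fit, chosen after the data were seen, used the 8 tumours whose replicate number occurs in both groups. In it 7 of 7 were higher at an unadjusted limma p under 0.05, against 9.13% of lines. With the number as a block it was again 7 of 7, against 6.6% of lines, and 0 were called in either fit. Both fits leave out vehicle replicate 6 and GSK343 replicate 4. For Rgs5 and Cspg4 these were the highest vehicle and the lowest GSK343 tumour.

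Marker genes of other cell types are given by their summed level in each group, and their part in the members' values was not tested. Skeletal muscle markers summed to 3.55 to 126 FPKM with vehicle and 74.0 to 540 FPKM with GSK343, with all 13 tested markers of 15 higher. Leukocyte markers summed to 298 to 914 and 642 to 1127 FPKM, with all 10 of 10 higher. Fibroblast markers summed to 1587 to 2044 and 1544 to 2384 FPKM, with 11 of 12 higher and a median log2 fold change of 0.50. The 1 lower marker, Dcn, averaged 1169 and 1082 FPKM, so it weighs heavily in these fibroblast sums. Endothelial markers summed to 102 to 131 and 106 to 136 FPKM, with 7 of the 11 tested of 13 higher. Liver and hepatoma markers summed to 6302 to 8441 and 5206 to 6526 FPKM, with 9 of 10 lower. No marker of these 5 lists was called by limma. At an unadjusted p under 0.05, 10 skeletal muscle, 9 leukocyte and 6 fibroblast markers were higher, 1 endothelial marker was higher and 1 lower, and 4 hepatoma markers were lower. None of these markers was listed at 0 in all tumours. Of the 6 cardiac markers, Myl7 was listed at 0 in all 10 tumours and Myh6 measured 0 and 0.000748 FPKM. With the skeletal muscle marker score as a covariate the median of the 7 members was 0.38, and with the endothelial score it was 0.32. In each of these fits 4 of the 7 were higher at an unadjusted limma p under 0.05, against 9.22% and 6.66% of lines. Scores of the other lists were not used as covariates, and these fits are a description.

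Acta2 (ENSMUSG00000035783.8, mm10 chromosome 19, 34241090 to 34255336) did not overlap between the groups. Its levels were 36.0, 49.8, 55.6, 53.2 and 47.6 FPKM in vehicle replicates 1, 2, 3, 5 and 6. They were 55.8, 75.2, 63.7, 75.7 and 70.8 FPKM in GSK343 replicates 1 to 5. Every GSK343 tumour was above every vehicle tumour, although GSK343 replicate 1 exceeded vehicle replicate 3 by little. The means were 48.4 ± 7.61 and 68.2 ± 8.47 FPKM (SD, n = 5 each), and the log2 fold change was 0.49 (SE 0.13, 95% interval 0.21 to 0.77, limma adjusted p = 0.191). The cytoplasmic actins Actb and Actg1 had log2 fold changes of 0.03 and -0.01. Actg2 measured 1.99 ± 0.584 and 2.30 ± 0.967 FPKM, and Actc1 0.129 ± 0.157 and 0.217 ± 0.174 FPKM. Acta1 measured 21.2 ± 14.6 and 61.2 ± 38.8 FPKM (limma adjusted p = 0.285).

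Tagln (chromosome 9, 45929619 to 45936058), an actin-binding protein of contractile cells, followed Acta2 closely. It measured 21.3, 30.2, 28.3, 25.5 and 24.6 FPKM in vehicle replicates 1, 2, 3, 5 and 6, and 27.7, 37.4, 33.5, 40.2 and 35.5 FPKM in GSK343 replicates 1 to 5. Only GSK343 replicate 1 lay within the vehicle range. The means were 26.0 ± 3.44 and 34.9 ± 4.71 FPKM (log2 fold change 0.41, SE 0.12, 95% interval 0.15 to 0.67, limma adjusted p = 0.191). The antisense gene Gm48529 shares 62.4% of the exon bases of Tagln and measured 1.04 ± 0.133 and 1.19 ± 0.258 FPKM. Since no source used here gives the strand setting, it is not known whether reads over the shared bases were told apart. The neighbouring gene Pcsk7 overlaps 5.43% of the exon bases and measured 3.02 ± 0.545 and 3.39 ± 0.596 FPKM. The paralog Tagln2 measured 267 ± 31.6 and 297 ± 15.3 FPKM (limma adjusted p = 0.357).

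Mylk (chromosome 16, 34745210 to 35002420) measured 5.02, 7.44, 7.12, 6.69 and 7.28 FPKM in vehicle replicates 1, 2, 3, 5 and 6. In GSK343 replicates 1 to 5 it measured 7.39, 9.24, 9.59, 7.90 and 11.1 FPKM. GSK343 replicate 1 again fell within the vehicle range, just under vehicle replicate 2. The means were 6.71 ± 0.985 and 9.05 ± 1.47 FPKM (log2 fold change 0.38, SE 0.13, 95% interval 0.10 to 0.66, limma adjusted p = 0.202). The gene's several protein forms, which include a long and a short kinase, are not separated by a value per gene. Of the antisense genes within Mylk, E130310I04Rik shares 4.87% of its exon bases and Gm21691 1.99%, and both had means under 0.3 FPKM.

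Myh11 (chromosome 16, 14194535 to 14291372) had the largest fold change of the 7 tested members at a low level. Vehicle replicates 1, 2, 3, 5 and 6 measured 0.524, 1.63, 1.14, 0.970 and 0.908 FPKM, and GSK343 replicates 1 to 5 measured 1.90, 1.55, 3.03, 2.004 and 3.20 FPKM. GSK343 replicates 3 and 5 stood highest, and GSK343 replicate 2 lay just under vehicle replicate 2. The means were 1.03 ± 0.401 and 2.34 ± 0.731 FPKM (log2 fold change 0.71, SE 0.18, 95% interval 0.32 to 1.10, limma adjusted p = 0.191). With a pseudocount of 0.1 in place of 1 the log2 fold change was 1.13.

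Lmod1 (chromosome 1, 135324807 to 135368065), which nucleates actin filaments in smooth muscle, and Cnn1 lay below the filter of the fit. Lmod1 measured 0.254, 0.393, 0.485, 0.305 and 0.451 FPKM in vehicle replicates 1, 2, 3, 5 and 6, and 0.4997, 0.541, 0.786, 0.669 and 0.740 FPKM in GSK343 replicates 1 to 5. The groups did not overlap, with a narrow gap between vehicle replicate 3 and GSK343 replicate 1. The share of all lines without overlap was taken only above the filter, so it does not cover Lmod1. The difference in mean log2(FPKM + 1) was 0.26 (exact two-sided permutation p = 0.00794, the smallest that 5 against 5 tumours can give, not adjusted). In a fit with a minimum mean of 0.1 FPKM, over 20880 lines, the limma adjusted p was 0.219.

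Cnn1 (chromosome 9, 22099216 to 22109630), the calponin of smooth muscle, was barely detected. It measured 0.278, 0.0361, 0.0626, 0.226 and 0 FPKM in vehicle replicates 1, 2, 3, 5 and 6, and 0.0659, 0.248, 0.153, 0.136 and 0.146 FPKM in GSK343 replicates 1 to 5. The groups overlapped fully. Over the longest Cnn1 transcript 1 inferred read is worth 0.00827 to 0.0110 FPKM, so the lowest of these values rest on few reads. The difference in mean log2(FPKM + 1) was 0.04 (exact two-sided permutation p = 0.587). In the fit with a minimum mean of 0.1 FPKM its log2 fold change was 0.04 with a 95% interval of -0.13 to 0.21 (limma adjusted p = 0.814). The calponins Cnn2 and Cnn3, which are not restricted to smooth muscle, measured 50.5 ± 8.50 and 58.8 ± 9.55 FPKM in vehicle tumours and had log2 fold changes of 0.17 and -0.01.

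Rgs5 (chromosome 1, 169655501 to 169695813), the most abundant pericyte gene of the members, overlapped widely between the groups. It measured 38.9, 60.6, 56.3, 52.1 and 60.7 FPKM in vehicle replicates 1, 2, 3, 5 and 6, and 60.1, 67.6, 76.2, 51.0 and 58.1 FPKM in GSK343 replicates 1 to 5. Vehicle replicate 1 was the lowest tumour, and GSK343 replicates 1, 4 and 5 lay under the highest vehicle tumour. The means were 53.7 ± 9.01 and 62.6 ± 9.64 FPKM (log2 fold change 0.22, SE 0.14, 95% interval -0.09 to 0.53, limma adjusted p = 0.431). Without vehicle replicate 1 the log2 fold change was 0.11, and over the 8 tumours whose replicate number occurs in both groups it was 0.34. The median ratio of Rgs5 to Acta2 was 108% in vehicle (98.0% to 128%) and 89.9% in GSK343 tumours (67.3% to 120%), a difference that was not tested.

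Cspg4 (chromosome 9, 56865033 to 56899870), the NG2 proteoglycan, varied widely within the groups. Its levels were 3.29, 3.71, 5.69, 6.65 and 7.15 FPKM in vehicle replicates 1, 2, 3, 5 and 6, and 6.86, 6.65, 9.62, 3.78 and 6.84 FPKM in GSK343 replicates 1 to 5. GSK343 replicate 4 was nearly as low as vehicle replicate 2, and GSK343 replicate 3 was the highest. The means were 5.30 ± 1.73 and 6.75 ± 2.07 FPKM (log2 fold change 0.30, SE 0.24, 95% interval -0.22 to 0.82, limma adjusted p = 0.526). Its log2 fold change was 0.18 when either vehicle replicate 1 or GSK343 replicate 3 was left out, and 0.46 when GSK343 replicate 4 was. It was 0.57 over the 8 tumours whose replicate number occurs in both groups, with or without the number as a block. It was 0.19 with tumour weights, 0.12 with the skeletal muscle score as a covariate and 0.11 without GSK343 replicates 3 and 5.

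Notch3 (chromosome 17, 32120820 to 32166880) separated the groups. Vehicle replicates 1, 2, 3, 5 and 6 measured 4.998, 6.39, 6.87, 5.79 and 5.41 FPKM, and GSK343 replicates 1 to 5 measured 7.73, 7.80, 9.27, 7.14 and 8.32 FPKM. The lowest GSK343 tumour, replicate 4, lay just above vehicle replicate 3. The means were 5.89 ± 0.751 and 8.05 ± 0.799 FPKM (log2 fold change 0.40, SE 0.10, 95% interval 0.18 to 0.61, limma adjusted p = 0.189). The antisense gene Gm17276 overlaps 6.03% of the exon bases of Notch3 and measured 0.0162 ± 0.0190 and 0.0147 ± 0.0139 FPKM.

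**Figure D2:**
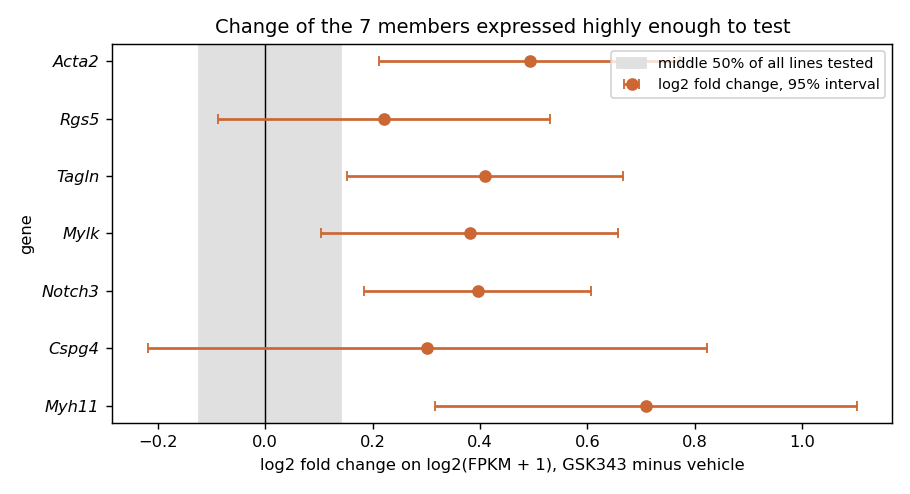
Log2 fold change on log2(FPKM + 1), GSK343 minus vehicle, with 95% intervals from limma (5 tumours per group) for the 7 tested members. The intervals of Rgs5 and Cspg4 include 0, those of the other 5 do not, and none of the 7 passed after adjustment; the grey band holds the middle 50% of all lines.

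Across single tumours the members moved partly together. Vehicle replicate 1 was the lowest of the 10 tumours for 8 of the 9 genes and the highest for Cnn1. That tumour also had the highest hepatoma marker sum (8441 FPKM, against 6302 to 6861 FPKM in the other vehicle tumours) and the lowest leukocyte marker sum (298 FPKM). Among vehicle tumours its fibroblast sum was lowest (1587 FPKM) and its skeletal muscle sum highest (126 FPKM). Its endothelial sum was 110 FPKM, within a vehicle range of 102 to 131 FPKM. Whether these sums bear on the members' levels was not tested. GSK343 replicate 3 was highest for 4 of the 9, Rgs5, Cspg4, Notch3 and Lmod1. GSK343 replicate 4 was highest for Acta2 and Tagln, and GSK343 replicate 5 for Myh11 and Mylk. GSK343 replicates 3 and 5 were above the mean of the 10 tumours for all 9 genes, and GSK343 replicate 1 for 4 of 9.

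**Figure D3:**
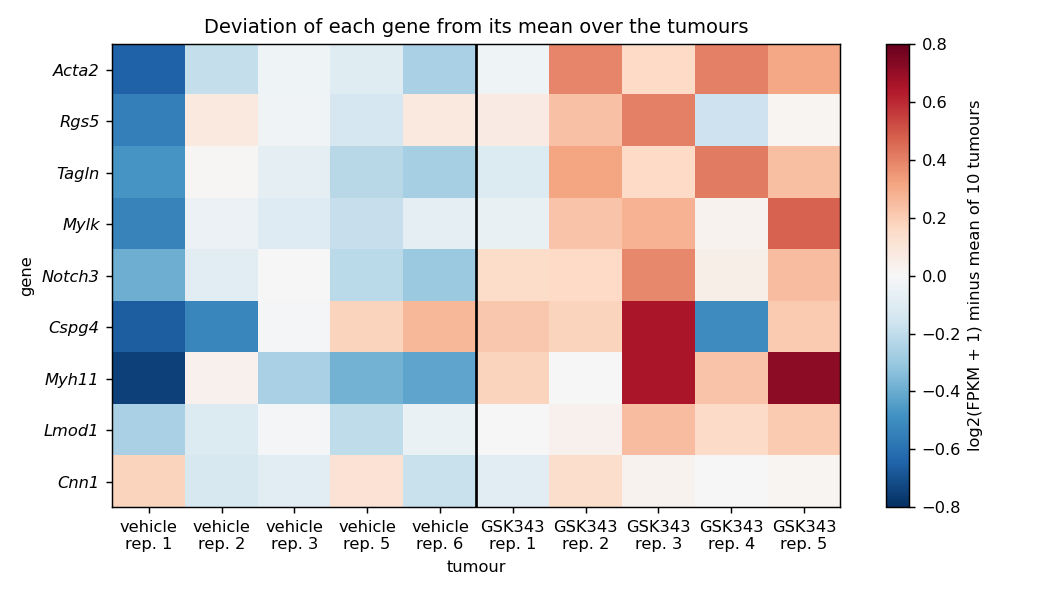
Each cell is the log2(FPKM + 1) of a gene (rows, by falling level) in a tumour (columns) minus its mean over the 10 tumours, blue below and red above. Vehicle replicate 1 is blue in 8 of 9 rows, and Cspg4 is red in vehicle replicates 5 and 6 and blue in GSK343 replicate 4.

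Likeness of pattern was measured as the root mean square difference between standardised log2(FPKM + 1) values over the 10 tumours, in SD units, where 0 means the same pattern. It was computed against 11335 other lines of named protein genes. For Acta2 the nearest line was Tagln (0.322 SD), then Prdm2, a zinc finger methyltransferase (0.386 SD), and Sirpb1a, a myeloid receptor (0.414 SD). Mylk was the next member for Acta2, at rank 32. For Myh11 the nearest were Lpxn, a leukocyte adhesion adaptor (0.165 SD), Cyr61, a matricellular protein induced by serum response factor and YAP (0.193 SD), and Atf3, a stress-induced transcription factor (0.201 SD). Cyr61 itself averaged 45.1 ± 10.3 FPKM with vehicle and 78.0 ± 16.3 FPKM with GSK343. For Rgs5 they were Gins3 and Pclaf, both linked to DNA replication (0.320 and 0.346 SD), and Zbtb1 (0.385 SD), with the nearest member, Mylk, at rank 237. For Notch3 they were P2ry14, a receptor for UDP-sugars (0.185 SD), Slfn8 (0.237 SD) and Phf11a (0.247 SD). The lines share libraries and groups, so these distances are a description.

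Other contractile genes were taken from a list of 25, of which 17 could be tested and 0 were called. In GSK343 tumours 16 were higher and 1 lower, 4 of them higher at an unadjusted limma p under 0.05, with a median log2 fold change of 0.17. Desmin (Des), the intermediate filament of muscle, measured 14.8 ± 2.16 and 21.3 ± 4.93 FPKM (limma adjusted p = 0.210), and skeletal muscle makes it too. Vinculin (Vcl), which links actin to adhesions, measured 5.94 ± 1.37 and 7.70 ± 1.14 FPKM. Filamin A (Flna), an actin crosslinker, measured 78.8 ± 16.5 and 97.0 ± 9.85 FPKM, and the amine oxidase Aoc3 7.38 ± 1.38 and 9.63 ± 1.95 FPKM. Their limma adjusted p lay between 0.244 and 0.265.

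Further pericyte genes formed a list of 23 entries. Of these, 21 had a line (2 are newer names of genes listed under older ones), 18 were tested, 0 were called, and 17 were higher and 1 lower, 6 of them higher at an unadjusted limma p under 0.05, with a median log2 fold change of 0.20. Higd1b and Cox4i2 had log2 fold changes of 0.05, Abcc9 of 0.13, and Vtn, the 1 lower gene, of -0.36. The 4 genes that follow had the smallest limma p of the list, and all were higher. P2ry14 measured 20.6 ± 2.38 and 27.1 ± 2.35 FPKM without overlap (log2 fold change 0.38, limma adjusted p = 0.189). Pdgfrb measured 16.6 ± 2.07 and 21.2 ± 1.96 FPKM (log2 fold change 0.34, limma adjusted p = 0.191), and fibroblasts make it too. The endothelin receptor Ednra measured 3.57 ± 0.667 and 5.16 ± 1.18 FPKM, and Gucy1b3, a subunit of the nitric oxide receptor guanylate cyclase, 1.64 ± 0.340 and 2.39 ± 0.514 FPKM.

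No regulator of the contractile programme was called. Of 13 entries for serum response factor and its partners, 11 had a line (2 are again newer names), 9 were tested, and 0 were called by limma or reached an unadjusted p under 0.05, with 8 higher and a median log2 fold change of 0.11. Srf itself measured 9.26 ± 1.16 and 10.1 ± 0.415 FPKM (limma adjusted p = 0.516). Klf4, which opposes the contractile state, measured 28.4 ± 4.22 and 35.4 ± 10.5 FPKM. Mef2c measured 1.33 ± 0.553 and 1.81 ± 0.394 FPKM, and Prrx1, a mesenchymal homeobox factor, 3.75 ± 0.612 and 5.05 ± 1.81 FPKM.

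The Notch list was mixed. Of 16 genes 12 were tested and 0 called, 8 higher and 4 lower, of which 2 and 1 had an unadjusted limma p under 0.05, with a median log2 fold change of 0.03. Notch1 measured 2.73 ± 0.344 and 3.82 ± 0.256 FPKM without overlap (log2 fold change 0.37, limma adjusted p = 0.189). Notch4, an endothelial receptor, measured 3.43 ± 0.671 and 2.57 ± 0.418 FPKM (-0.30, limma adjusted p = 0.249). Lfng, which modifies Notch receptors with sugar, measured 5.75 ± 2.24 and 8.67 ± 1.72 FPKM. Hes1, a target of Notch signalling, measured 54.1 ± 5.94 and 48.3 ± 5.72 FPKM (limma adjusted p = 0.426).

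In the PDGF pathway, through which endothelium recruits pericytes, 5 of 6 genes were tested and 0 called, 1 (Pdgfrb) reaching an unadjusted limma p under 0.05, with a median log2 fold change of 0.15. The ligand Pdgfb measured 19.4 ± 3.39 and 21.3 ± 1.87 FPKM and the ligand Pdgfa 87.8 ± 13.2 and 78.5 ± 4.78 FPKM. The receptor Pdgfra, a fibroblast marker, measured 1.62 ± 0.259 and 2.70 ± 1.25 FPKM. Of 23 genes listed as paralogs of the members, 14 were tested and 0 called, with a median log2 fold change of 0.14. At an unadjusted limma p under 0.05, 3 were higher and 1 lower. Notch1 (higher) and Notch4 (lower) were already counted in the Notch list, and Acta1 (higher) among the skeletal muscle markers. The remaining higher one, Rgs16, measured 20.8 ± 5.28 and 30.4 ± 7.41 FPKM (limma adjusted p = 0.213).

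**Figure D4:**
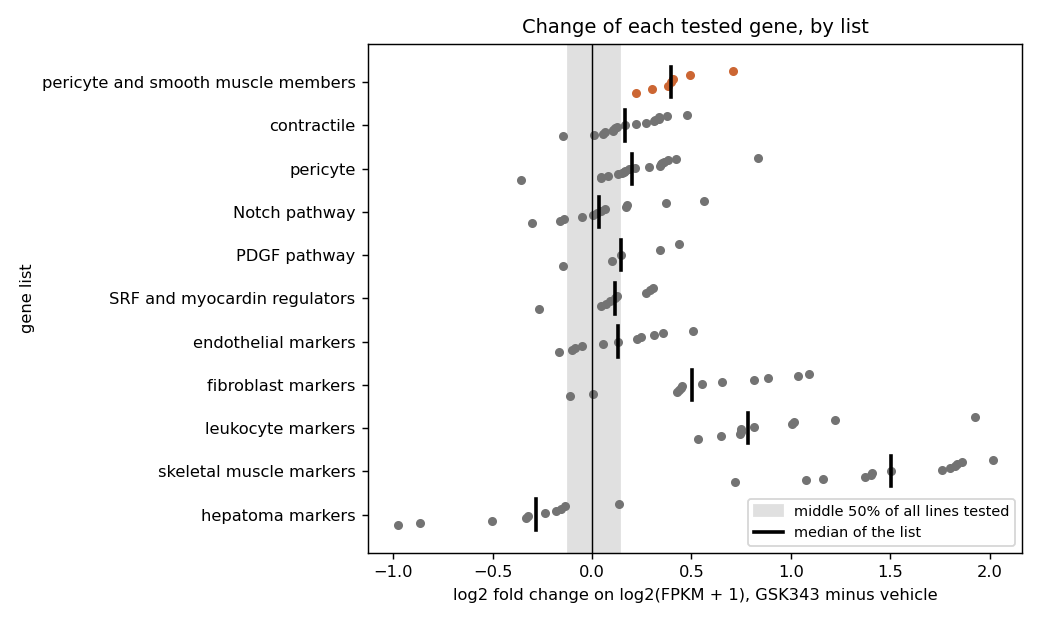
Log2 fold change on log2(FPKM + 1), GSK343 minus vehicle, of every tested gene (dots) in 11 lists, with the list's median as a black bar and the middle 50% of all lines as a grey band. The members' median of 0.40 lies above those of the contractile (0.17) and pericyte (0.20) lists and below those of the fibroblast (0.50), leukocyte (0.78) and skeletal muscle (1.503) markers.

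The 2 most abundant markers of each other cell type did not always go the way of most of their list. Dcn, Esam and Egfl7 had log2 fold changes of -0.11, -0.17 and -0.10, while 11 of 12 fibroblast and 7 of 11 endothelial markers were above 0. Dcn and Col1a1 of fibroblasts measured 1169 ± 112 and 165 ± 36.3 FPKM with vehicle and 1082 ± 108 and 226 ± 46.3 FPKM with GSK343. Esam and Egfl7 of endothelium measured 42.4 ± 2.14 and 20.1 ± 1.64 FPKM with vehicle and 37.8 ± 3.16 and 18.8 ± 2.87 FPKM with GSK343. Alb and Afp, the liver and hepatoma genes, measured 3129 ± 318 and 2085 ± 197 FPKM with vehicle and 2810 ± 278 and 1775 ± 252 FPKM with GSK343. Cd52 and Tyrobp of leukocytes measured 169 ± 101 and 75.8 ± 39.8 FPKM with vehicle and 314 ± 89.8 and 144 ± 39.8 FPKM with GSK343. Tnnt3 of skeletal muscle measured 10.8 ± 7.72 and 36.2 ± 28.7 FPKM. Of the cardiac list, Tnnt2 measured 37.3 ± 11.5 and 30.7 ± 14.7 FPKM and Tnni3 1.79 ± 1.55 and 3.26 ± 0.674 FPKM. Whether the hepatoma cells themselves make any of the 9 members was not tested.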

How the data were processed

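The authors deposited values that were read here as FPKM, since the header names no unit, the sums per tumour differ and StringTie is among their tools. The submitters' processing notes list Trimmomatic (0.33), HISAT2 (2.1.0) and StringTie (1.3.3b), with mm10 as the genome; neither options nor annotation release nor strand setting is given in the sources used here. A further 10 unnamed columns held no values. The table gives no counts, so no counting interval can be given. From these values, log2(FPKM + 1) was fitted with limma 3.58.1 (R 4.3.3, intensity trend, two-sided) over all lines averaging 1 FPKM or more, and p-values were adjusted over all of them. Members under that filter were compared by an exact permutation test over 252 assignments. Scores are means of log2(FPKM + 1) over a list's tested genes. The members and the gene lists were chosen with earlier results of these data known. Named genes were the members, up to 4 genes of each related list with the smallest p, the paralogs of Acta2, the 3 nearest patterns of 4 members, the 2 most abundant markers of each other cell type and overlapping genes. Outside this rule, and with their values seen, Tagln2, Cnn2, Cnn3, Myocd, Myl7, Myh6, Higd1b, Cox4i2, Abcc9 and Vtn were named too. GENCODE M21 gave overlaps and transcripts; the deposited coordinates of Acta2 and Notch3 differ from it. Alternatives covered the filter, pseudocount, scaling, variance model, tumour weights, marker scores, the replicate number and each tumour left out. Plots used matplotlib 3.10.9.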

Additional observations from a re-analysis of the deposited data

How the results depend on the processing

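In all 24 alternatives no member was called, and every tested member kept a log2 fold change above 0; Myh11 could not be tested at a minimum mean of 5 FPKM. The lowest adjusted p of any member was 0.0558, for Myh11 without vehicle replicate 2. The members' median log2 fold change stayed between 0.32 and 0.45, and between 0.34 and 0.44 with 1 tumour left out. The lines called over the whole table numbered 12. They numbered 7 at a minimum mean of 0.1 FPKM, 3 at 5 FPKM, 6 with no filter, 7 with quantile normalization, 4 with the skeletal muscle score, 2 with the endothelial score, and 3 to 98 with 1 tumour left out (98 without vehicle replicate 2). Chosen after the data were seen, the fit without GSK343 replicates 3 and 5 gave 4. With the replicate number as a block over the 8 tumours whose number occurs in both groups there were 2, and 5 in the same tumours without it (also chosen after the data were seen). Same-numbered tumours did not deviate together (correlations -0.33 to 0.03). The labels do not say whether the numbers pair the samples, and these correlations cannot settle it.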
